A study of Homo sapiens with 4 samples.

Results

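The FOS, FOSB, FOSL2 and ATF3 genes encode proteins related to Fra-1, the protein whose binding was mapped here. The peaks listed around these 4 genes were taken by position alone, as all listed peaks that touch a window set around each gene. In hg19 the windows are chr14:75725000-75770000 (FOS, 45 kb), chr19:45950000-46000000 (FOSB, 50 kb), chr2:28595000-28660000 (FOSL2, 65 kb) and chr1:212720000-212815000 (ATF3, 95 kb). They held 24 of the 57601 peaks listed in all. For Fra-1 they were 5 of the 16133 peaks listed over IgG and 14 of the 30571 listed over input. For DDX5 they were 0 of the 61 listed over IgG and 5 of the 10836 listed over input. A position can be listed more than once, and the 24 peaks mark 16 separate positions, 3 at FOS, 4 at FOSB, 5 at FOSL2 and 4 at ATF3.

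The data are chromatin immunoprecipitation sequencing (ChIP-seq) of untreated BT549 cells, a human breast cancer line without oestrogen receptor alpha. Chromatin was taken with an antibody to Fra-1, with an antibody to the RNA helicase and coactivator DDX5, and with normal rabbit IgG, and input DNA was sequenced without antibody. Each was 1 library, so no difference had a replicate check and no p-value is given. The study asked where Fra-1 and DDX5 bind together and where either binds alone. Each antibody was called by the authors against IgG, which also carries unspecific pull-down, and against input, which carries copy number and ease of recovery. The pileup (fragments over the summit) and the fold enrichment (pileup plus 1 over the control level plus 1) are the authors' values. Relative depths follow from the steps of the pileups: per Fra-1 fragment the IgG library had 0.884 fragments, per DDX5 fragment it had 0.998, and the Fra-1 library was 1.13 times as deep as the DDX5 library. Absolute depths are unknown.

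AP-1 is a dimer of basic leucine zipper proteins, in which a Fos-family protein (c-Fos, FosB, Fra-1 or Fra-2) pairs with a Jun-family protein and binds the sequence TGANTCA. FOS and FOSB are immediate early genes, transcribed within minutes of a growth or stress signal, and their full-length products carry a strong activation domain. FOSL2 encodes Fra-2, which like Fra-1 lacks that domain and persists longer in stimulated cells. ATF3 is a stress-induced member of the ATF/CREB family that can pair with Jun proteins and often represses its targets. AP-1 is known to act on genes of its own family, which is why peaks at these loci are of interest.

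The start regions of the 3 Fos-family genes are shown because the motifs that AP-1 and CREB/ATF proteins bind can be read in them. The sequences are RefSeq's, in build GRCh38.p14, from 250 bases before the annotated start to 50 bases after it, on the plus strand. They lie at chr14:75278578-75278877 (FOS), chr19:45467746-45468045 (FOSB) and chr2:28392608-28392907 (FOSL2). These GRCh38 positions were not converted to hg19, the build of the peaks, so which peaks cover an annotated start was not analysed here. Capitals mark TGANTCA and TGACGT, the core of the cAMP response element (CRE).
FOS: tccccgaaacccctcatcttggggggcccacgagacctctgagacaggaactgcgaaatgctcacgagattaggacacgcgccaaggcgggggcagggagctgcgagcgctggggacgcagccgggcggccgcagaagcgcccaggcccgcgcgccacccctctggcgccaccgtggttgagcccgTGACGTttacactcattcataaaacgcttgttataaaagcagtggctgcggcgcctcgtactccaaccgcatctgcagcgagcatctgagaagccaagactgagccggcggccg
FOSB: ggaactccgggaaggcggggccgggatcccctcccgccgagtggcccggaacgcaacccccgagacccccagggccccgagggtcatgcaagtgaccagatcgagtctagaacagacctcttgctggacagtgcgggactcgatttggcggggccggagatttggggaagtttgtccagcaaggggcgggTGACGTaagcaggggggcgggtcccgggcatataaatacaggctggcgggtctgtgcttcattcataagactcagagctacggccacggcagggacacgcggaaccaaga
FOSL2: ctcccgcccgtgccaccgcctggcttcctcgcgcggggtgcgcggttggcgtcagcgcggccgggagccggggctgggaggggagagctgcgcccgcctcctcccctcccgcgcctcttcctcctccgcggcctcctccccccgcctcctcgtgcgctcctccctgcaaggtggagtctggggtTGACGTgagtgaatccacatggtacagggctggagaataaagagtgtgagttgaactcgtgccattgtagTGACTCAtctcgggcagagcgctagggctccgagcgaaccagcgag

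FOSL2 was the gene of the 4 whose window held the AP-1 motif: a TGACTCA begins at base 5 of the transcript. All 4 genes matched the table, with 5 entries, since ATF3 has 2. The motif TGANTCA, searched on both strands, is in 7.71% of all 35116 such windows. The full CRE, TGACGTCA, was in none of the 5 entries and is in 1.85% of all windows. The core TGACGT, which is part of TGACGTCA and was chosen after these sequences had been read, stood in the FOS, FOSB and FOSL2 windows and in neither ATF3 window, against 7.98% of all windows. It ended 58 bases before the start in FOS, 54 bases before it in FOSB and 60 bases before it in FOSL2. GC content was 64.7%, 64.0% and 68.7% in the FOS, FOSB and FOSL2 windows and 48.0% and 46.3% in the ATF3 windows. Any start of these genes outside the 5 entries was not searched, so the motifs and GC content describe these windows only. A match is only a match of letters, and no match says only that these letters are not in this window.

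Fra-1 peaks over input were listed at all 4 loci, 2 at FOS and 4 each at FOSB, FOSL2 and ATF3. Over IgG, Fra-1 was listed 3 times at ATF3, at 1 position each at FOSB and FOSL2, and not at FOS. DDX5 over input was listed at FOS (2 peaks), FOSL2 (2 peaks) and ATF3 (1 peak), and not at FOSB. To give the density of each list nearby, the chromosome of each locus was tiled into windows of the locus's own length, including stretches without genes. Of the tiles of chromosome 2, 2.83% held at least 4 Fra-1 peaks over input, 18.4% a Fra-1 peak over IgG and 1.52% at least 2 DDX5 peaks over input, as FOSL2 did. On chromosome 14, 9.29% held at least 2 Fra-1 peaks and 2.93% at least 2 DDX5 peaks over input, as FOS did, and 11.2% held a Fra-1 peak over IgG, which FOS did not. On chromosome 19, 6.94% held at least 4 Fra-1 peaks over input, as FOSB did, 15.6% held a Fra-1 peak over IgG, which FOSB also did, and 29.9% held a DDX5 peak over input, which FOSB did not. On chromosome 1, 12.6% held at least 4 Fra-1 peaks over input, 8.58% at least 3 Fra-1 peaks over IgG and 26.0% a DDX5 peak over input, as ATF3 did. These loci were chosen as gene loci, and whether other genes have like counts was not tested.

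**Figure D1:**
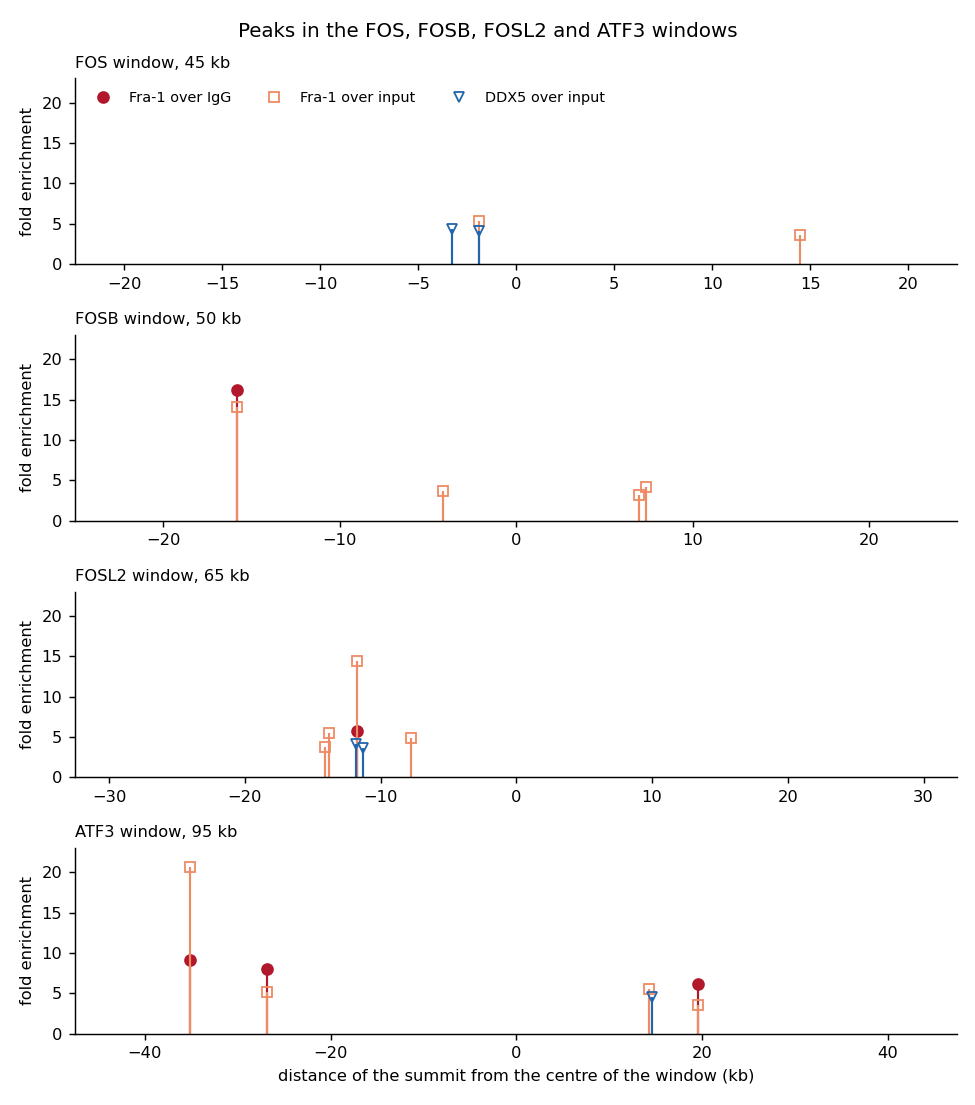
Peaks in the 4 windows, 1 panel a locus, each with its own horizontal scale: distance of the summit from the window's centre in kb, against the authors' fold enrichment. FOS holds no Fra-1 peak over IgG and FOSB no DDX5 peak, and the highest fold, 20.6, is a Fra-1 peak over input at ATF3.

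At the FOS locus the folds ran from 3.59 to 5.33, and a Fra-1 and a DDX5 summit stood on nearly the same base. The Fra-1 peak over input at chr14:75745238-75745765 had 26 fragments at its summit (95% Poisson interval 17.0 to 38.1) and a fold of 5.33. It ranked 15466 of 30571, close to the middle of the list, whose median fold was 5.37. A DDX5 peak over input at chr14:75745425-75745716 lay wholly inside it, with 18 fragments (10.7 to 28.4) and a fold of 4.13, and the summits were 2 bp apart. A second DDX5 peak over input at chr14:75744066-75744287, with 15 fragments and a fold of 4.35, had no Fra-1 peak: 950 bp separated it from the Fra-1 peak. The other Fra-1 peak, at chr14:75761857-75762056, was 16.4 kb further on, with 14 fragments (7.65 to 23.5) and a fold of 3.59. Neither antibody was listed over IgG anywhere in the window, so each of these 4 peaks rests on the comparison with input. Outside the window the nearest Fra-1 peak over input was 194.3 kb away. In RefSeq the protein-coding neighbours of FOS are TMED10 and JDP2, which encodes another basic leucine zipper protein that dimerizes with Jun.

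At the FOSB locus a strong Fra-1 peak and no DDX5 peak were listed. The leading Fra-1 peaks of FOSL2 and ATF3 had higher folds over input, 14.4 and 20.6. The peak at chr19:45958964-45959650 had 149 fragments (126 to 175), the most of the 14, and a fold of 14.0 over input. Over IgG it was listed at chr19:45958997-45959368 with a fold of 16.2, which ranked 870 of 16133, within the upper 5.39% of that list. The other 3 Fra-1 peaks, listed over input only, had folds of 3.18 to 4.14. The peak at chr19:45970799-45971029 had 15 fragments (8.40 to 24.7) and lay 11.7 kb from the strong one. The remaining pair, at chr19:45981465-45982102 and chr19:45982199-45982463, stood 96 bp apart with 36 and 24 fragments. The input level at the peak with 36 fragments, 10.6, was the highest of the 14 peaks, and its fold of 3.18 the lowest. The genes beside FOSB in RefSeq are ERCC1, a DNA repair gene, and RTN2, so a peak in this window need not belong to FOSB.

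FOSL2 was the locus where Fra-1 was listed over both controls and DDX5 over input at 1 position. The Fra-1 peak at chr2:28615187-28616066 was 880 bp wide, the widest of the 14, with 83 fragments (66.1 to 103) and a fold of 14.4 over input. Over IgG it was listed at chr2:28615563-28615884 with a fold of 5.72, below that list's median of 6.82. The DDX5 peak over input at chr2:28615598-28615900 lay inside it with 21 fragments (13.0 to 32.1) and a fold of 4.16, its summit 26 bp from that of Fra-1. Scaled to Fra-1 depth those 21 fragments are 23.7, and the counting intervals of Fra-1 and DDX5 did not overlap at this position. At the same depth the IgG level at the Fra-1 summit was 13.6 and the input level 4.84. DDX5 was not listed over IgG here, and the part of the IgG level in its fragments was not tested. A further DDX5 peak, at chr2:28616152-28616412, began after a gap of 85 bp beyond the Fra-1 peak, with 15 fragments and a fold of 3.61. The other 3 Fra-1 peaks were at chr2:28613236-28613453, chr2:28613517-28613954 and chr2:28619462-28619811, all within 4.0 kb or less of their neighbour by summit. They had 14, 21 and 19 fragments, folds of 3.73, 5.47 and 4.88, and no peak over IgG.

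The ATF3 locus had the most Fra-1 peaks over IgG. Its leading peak, at chr1:212732113-212732539, had 82 fragments (65.2 to 102) and the highest fold over input of the 14, 20.6, which ranked 1331 of 30571. The input level at this peak, 3.02, was the lowest value in the list over input. Over IgG the peak had a fold of 9.19. The next, at chr1:212740415-212740760, was 8.3 kb away with 44 fragments (32.0 to 59.1), a fold of 7.98 over IgG and 5.15 over input. At chr1:212786974-212787180 a peak of 27 fragments (17.8 to 39.3) had a fold of 6.22 over IgG and 3.60 over input. Between them, 41.2 kb from the second, the peak at chr1:212781618-212782289 had 26 fragments (17.0 to 38.1) and a fold of 5.54 over input and was not listed over IgG. This was the position with DDX5: a DDX5 peak over input at chr1:212781915-212782235 lay inside it, with 16 fragments (9.15 to 26.0), a fold of 4.54 and its summit 308 bp from that of Fra-1. The 3 ATF3 peaks listed over IgG had no DDX5 peak and the remaining peak did. ATF3 has NENF and GARIN4 as its protein-coding neighbours in RefSeq.

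The folds at the 4 loci had medians near those of the whole lists. The 14 Fra-1 peaks over input had a median fold of 5.01 (3.18 to 20.6), against 5.37 in the list, and 5 of them reached the list's median. At 8-fold or more there were 3 of 14, the leading peaks of FOSB, FOSL2 and ATF3, where the share of the list was 29.5%. Over IgG the median fold of the 5 Fra-1 peaks was 7.98 (5.72 to 16.2), against 6.82 in the list, and 2 reached 8-fold, where the share of the list was 38.8%. The 5 DDX5 peaks over input had a median fold of 4.16 (3.61 to 4.54), against 4.16 in the list, and none reached 8-fold, as 2.28% of the list did. Their fragments ranged from 15 to 21, so each DDX5 value has a counting interval that spans the others.

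**Figure D2:**
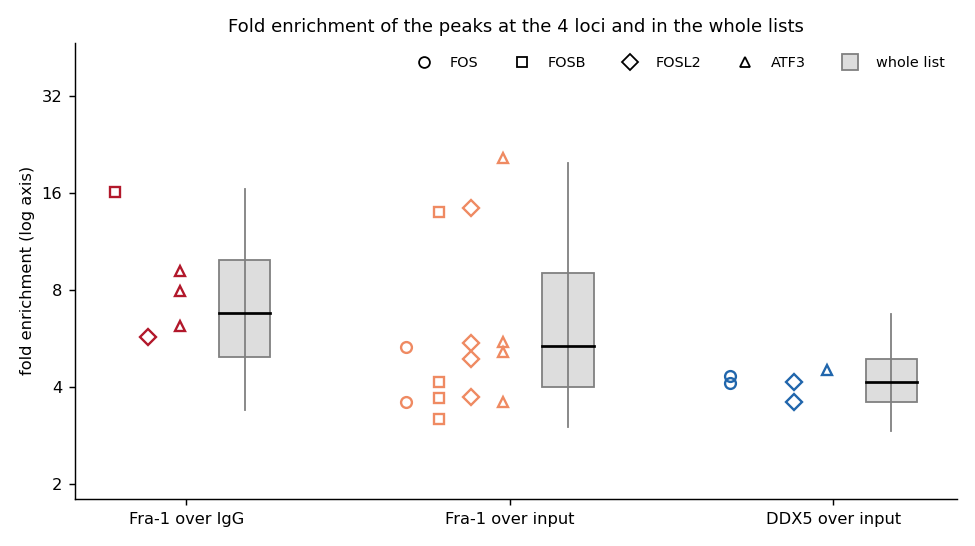
Authors' fold enrichment (log axis) of each peak at the 4 loci, by list, with the symbol giving the locus. The grey box is the interquartile range of the whole list, the black line its median and the grey line its 5th to 95th percentile range; the 5 DDX5 peaks lie between 3.61 and 4.54, around the list's median of 4.16.

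The Fra-1 peaks listed over both controls had more fragments at the median than those listed over input only. All 5 Fra-1 peaks over IgG overlapped a Fra-1 peak over input, as 97.7% of that list did. Conversely, 5 of the 14 peaks over input were also listed over IgG, 35.7% (95% exact binomial interval 12.8% to 64.9%), where the share of the list was 50.5%. Those 5 had 27 to 149 fragments (median 82.0) and the other 9 had 14 to 36 (median 21.0). The whole list had the same order, with medians of 50 and 21.0 fragments, and being listed depends on the count itself. At the 4 loci the ranges overlapped: the FOSB peak with 36 fragments was not listed over IgG, whereas the ATF3 peak with 27 was. Of the 5 peaks listed over both controls, 1 overlapped DDX5 (FOSL2), beside 9.38% of such peaks in the list. Of the 9 listed over input only, 2 did (FOS and ATF3), beside 34.4% of such peaks in the list.

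**Figure D3:**
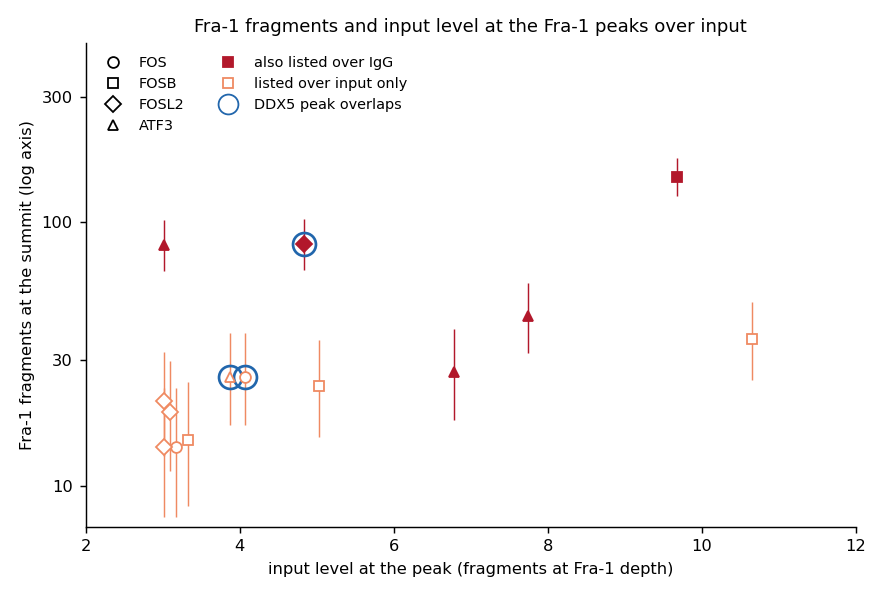
Fra-1 fragments at the summit (log axis, bars are 95% Poisson intervals) against the input level, in fragments at Fra-1 depth, for the 14 Fra-1 peaks over input. Filled symbols are also listed over IgG (27 to 149 fragments), open ones are not (14 to 36), and rings mark the 3 peaks that a DDX5 peak over input overlaps.

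The shares of peaks with the other antibody were close to those of the whole lists, with wide intervals. A DDX5 peak over input overlapped 3 of the 14 Fra-1 peaks over input, 21.4% (4.66% to 50.8%), beside 21.8% of the list. In the other direction 3 of the 5 DDX5 peaks over input overlapped a Fra-1 peak over input, 60.0% (14.7% to 94.7%), beside 61.8% of the list. Against Fra-1 over IgG it was 1 of the 5, at FOSL2, beside 13.2% of the list. Of Fra-1 peaks over IgG 1 of 5 overlapped DDX5, beside 8.68% of the list. No DDX5 peak of the 5 was listed again over IgG, as 0.508% of the list were. The lists of both antibodies over input share 1 input library, so its chance values enter both.

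The 3 Fra-1 peaks with DDX5 were among the wider of the 14. Their widths were 528 bp at FOS, 880 bp at FOSL2 and 672 bp at ATF3, and the 11 Fra-1 peaks without DDX5 had a median width of 346 bp (200 to 687 bp), so the ranges overlapped. In the whole list the medians were 410.5 bp with DDX5 and 301 bp without. A wide peak meets the overlap rule of at least 1 bp more easily, and the part of this rule in the widths was not tested. Fragments were taken at each antibody's own summit, and at ATF3 these summits were 308 bp apart. Scaled to Fra-1 depth, they were 26 fragments for Fra-1 and 20.3 for DDX5 at FOS, and 26 and 18.0 at ATF3. At FOS and ATF3 these differences are within the counting intervals, and at FOSL2, with 83 and 23.7, the difference is not. Such intervals cover counting error only and take no account of the choice of the summit as the highest point.

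**Figure D4:**
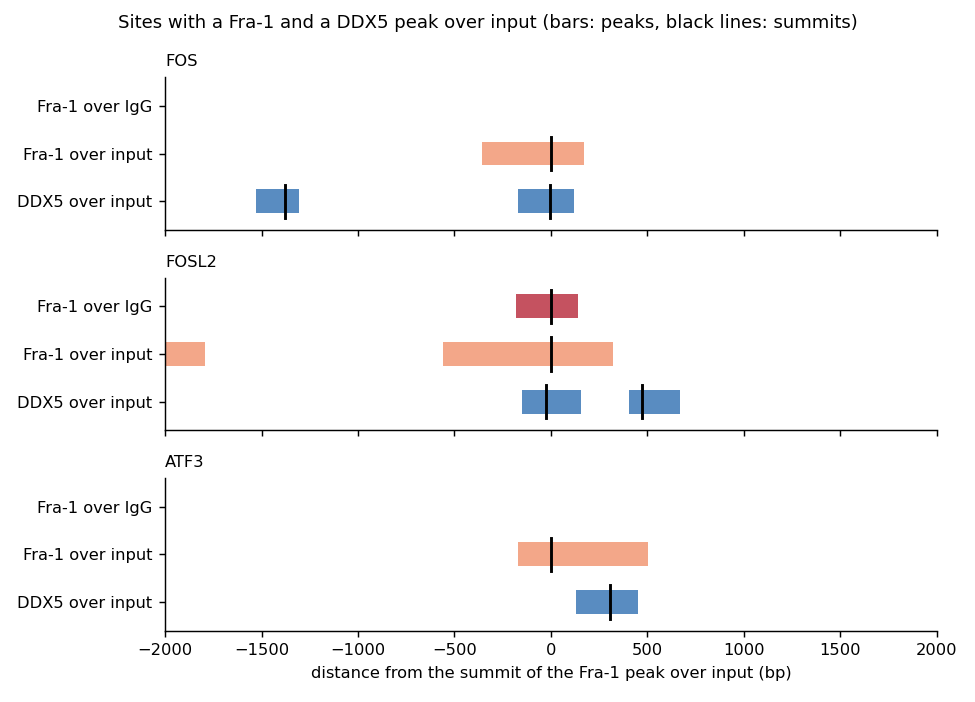
The 3 positions where peaks of both antibodies over input overlap, aligned on the summit of that Fra-1 peak (bp). Bars are peaks and black lines summits: the DDX5 summits stand 2 bp (FOS), 26 bp (FOSL2) and 308 bp (ATF3) away, and of these 3 positions FOSL2 also has a Fra-1 peak over IgG.

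The choice of control changed the order of the 5 Fra-1 peaks listed over both. At each, the Fra-1 fragments were the same number in both lists, while the control level differed. In the list over IgG the pileup is scaled to the IgG library before 1 is added, which also moves the fold slightly, and at the ATF3 peak with 27 fragments the summits were 11 bp apart. At FOSL2 the IgG level was 13.6 and the input level 4.84, in fragments at Fra-1 depth, a ratio of 2.80. For the leading ATF3 peak the IgG level was 7.92 and the input level 3.02, a ratio of 2.62, with the input at the lowest value in its list. The order was the opposite at the ATF3 peak with 44 fragments, with 4.52 for IgG and 7.74 for input, and at the one with 27 fragments, with 3.39 for IgG and 6.78 for input. At FOSB the levels were closer, 8.14 for IgG and 9.68 for input. The FOSL2 peak had the lowest of the 5 folds over IgG, 5.72, and the second highest over input, 14.4. Of the 14 Fra-1 peaks over input, 3 stood where the input level was at the lowest value in that list, 3.02, as did 15.3% of the list. The leading ATF3 peak, with the highest fold over input, was among these 3. Of the 5 DDX5 peaks 1 stood at the lowest value of its own list, 2.68, as did 17.7% of that list. The part of these control levels in whether DDX5 or Fra-1 was listed was not tested.

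**Figure D5:**
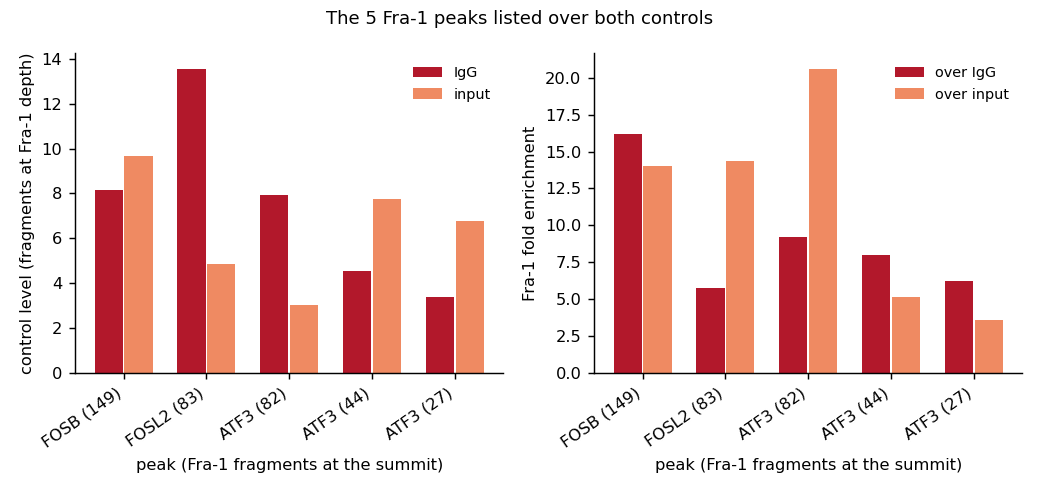
Control level, in fragments at Fra-1 depth (left), and Fra-1 fold enrichment (right) at the 5 Fra-1 peaks listed over both controls, named by locus with the Fra-1 fragments in parentheses. IgG stands left of input in each pair: the IgG level is the higher at FOSL2 (13.6 against 4.84) and at the ATF3 peak with 82 fragments (7.92 against 3.02), and the lower at the other 3.

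The edges of the windows decided a few memberships. Inside, the peak nearest to an edge was the FOS peak at chr14:75761857-75762056, 7.9 kb from it, with a fold of 3.59, followed by the strong FOSB peak, 9.0 kb from it. Just outside, the nearest was a Fra-1 peak over input of 5.56-fold, 2.9 kb below the FOSB window. A strong Fra-1 peak lay 8.7 kb above the FOSL2 window, at chr2:28668730-28669181, with a fold of 17.1 over IgG and 33.6 over input, both higher than at any of the peaks inside the 4 windows. Above the FOSB window a Fra-1 peak at chr19:46009738-46010256 had a fold of 3.90 over IgG and 9.40 over input, 9.7 kb out. Above the ATF3 window a peak at chr1:212829286-212829725 had a fold of 4.59 over IgG and 7.71 over input, 14.3 kb out. Among DDX5 peaks over input the nearest outside a window was 17.5 kb below the FOSB window, with a fold of 4.35, and the nearest to the FOS window was 131.0 kb away.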

How the data were processed

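Per the labels, Fra-1 ChIP, DDX5 ChIP, IgG ChIP and input DNA were sequenced as 1 library each. The submitters' processing notes name CASAVA 1.8, Bowtie 0.12.9, HOMER and hg19. The peak caller is not given in the sources used here. Per the file headers, the deposited pileup is a signal and the deposited fold enrichment a ratio. The authors' −log10 p-value and −log10 q columns have damaged header cells. The first matches the Poisson probability of the pileup at the control level (median difference 6.22e-06 for Fra-1 over input). Pileups over IgG step by 0.884 for Fra-1 and by 0.998 for DDX5 (tolerance 0.02), and division by the step gave whole fragments.

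The control level was computed as pileup plus 1, divided by the fold, minus 1. Overlap means at least 1 bp. Intervals are 95% exact binomial (Clopper-Pearson) or Poisson and cover counting error only. The overlap code was tested on simulated data. Scripts ran in Python 3.11.15 with pandas 2.3.3, numpy 2.4.6 and scipy 1.17.1; plots used matplotlib 3.10.9. For each locus the text gives every peak over IgG, every peak with both antibodies and the 3 highest folds over input. Alternatives were other thresholds, overlap rules, window edges and controls. The members, lists and rules were chosen with earlier results of these data known.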

Additional observations from a re-analysis of the deposited data

How the results depend on the processing

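With 14 and 5 peaks, the shares have wide intervals and depth limits what could be listed: the weakest of the 24 peaks had 14 fragments. At 8-fold or more the 4 loci held 2 Fra-1 peaks over IgG (5 as listed), 3 over input (14) and 0 DDX5 peaks over input (5). At or above each list's median −log10 q they held 4 Fra-1 peaks and 1 DDX5 peak over input. Thresholds lower a count by construction. The share of Fra-1 peaks over input listed again over IgG, 35.7%, became 66.7% (2 of 3) with both lists at 8-fold and 100% (4 of 4) above both medians. The share of Fra-1 peaks with DDX5, 21.4%, was 0% by construction with both lists at 8-fold (0 of 3) and with both lists over IgG (0 of 5), since no DDX5 peak is left at the loci under either, so these say nothing of the overlap. The share of DDX5 peaks with Fra-1, 60.0%, became 100% (1 of 1) above both medians and could not be computed at 8-fold. The thresholds leave fewer peaks; beyond that, the cause of the moves was not tested. The other 30 of 40 alternatives stayed within 1.5 times (counts) or within the interval (shares), a tally that these rules partly fix in advance. All alternatives for DDX5 over IgG are among the 30: thresholds cannot raise a count of 0, and widening by 10 kb reached no such peak. For shares the intervals are so wide that a large fall can still count as staying. With centres within 100 bp, 1 of 14 Fra-1 peaks kept DDX5 (7.14%, against 21.4% as listed), at FOS. Under the same rule 1 of 5 DDX5 peaks kept Fra-1, against 60.0% as listed. Narrowing the windows by 10 kb left 4 Fra-1 peaks over IgG and 12 over input, without the strong FOSB peak. Counted locus by locus, 21 alternatives moved and 59 did not, the latter with the 0 counts of DDX5 over IgG. Widening by 10 kb gave FOSB 7 Fra-1 peaks over input (4 as listed) and 2 over IgG (1 as listed). It gave FOSL2 2 Fra-1 peaks over IgG (1 as listed), and narrowing left FOS 1 over input (2 as listed). No paired analysis was possible because each antibody has 1 library.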
